A study of Canis lupus familiaris with 25 samples.

Results

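Cytoplasmic ribosomal protein genes encode the protein subunits of the ribosome outside the mitochondria. They were taken here as all probe sets that name exactly 1 gene whose symbol starts with RPL (large subunit) or RPS (small subunit) followed by a digit, without the RPS6 kinases. This gave 55 genes with 115 probe sets, of which 53 genes (32 of the large and 21 of the small subunit) passed a filter on low signals, out of 8885 genes tested. RPL10L and RPL37A did not pass it: their highest signals on any array were 4.68 and 3.03 on the log2 scale. RPS19BP1 has a matching symbol but encodes a protein that binds RPS19, so it was left out, and 12 probe sets that name several genes were left out as well. RPL3, RPL11 and RPS6 had no probe set naming them alone among those used here.

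The ribosome joins amino acids into protein. Its small subunit holds the mRNA, its large subunit forms the peptide bond, and each needs a copy of nearly every ribosomal protein, so the mRNAs of these genes are among the most plentiful of a cell and are usually held at similar proportions. Most carry a terminal oligopyrimidine (TOP) tract at their start, through which mTOR signalling controls their translation. Ribosome assembly in the nucleolus needs RNA polymerase I, which transcribes ribosomal RNA, and many assembly factors. Several members have paralogues (RPL3L, RPL7L1, RPL22L1, RPL26L1, RPL36AL, RPS27L). Some of these, though not all, can stand in for the parent protein or are used in particular tissues. Members were assigned to a subunit by symbol, which does not show that a paralogue such as RPL7L1 is part of the ribosome. Some free ribosomal proteins, such as RPL5, bind the p53 regulator MDM2.

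Total RNA of 13 simple mammary carcinomas that had spread to lymph nodes and of 12 non-neoplastic mammary glands from 14 dogs of several breeds, aged 9 to 16 years, was measured on 1 Affymetrix canine array each. Both tissues came from 11 of the dogs. Dogs 1 and 9 gave only a tumour and dog 8 only a gland, and all 13 tumours carried a negative label in the field era. Specimens had been macrodissected for a content of 70% tumour or gland epithelium, so other cells remained in each RNA sample, and in such bulk tissue fewer cells of a type and less RNA per cell cannot be told apart.

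Values are the authors' normalized signals on a log2 scale, and differences are tumour minus gland of the same dog, as mean ± SD over 11 dogs. A gene was called if its adjusted p (limma, dog as block, Benjamini-Hochberg over all 21553 tested probe sets) was under 0.05. Luminal epithelial markers (KRT8, KRT18, EPCAM, CDH1, CLDN4) were present in both tissues, with means per array of 8.17 to 12.84 in tumours and 10.71 to 12.55 in glands, and 0 of 5 were called (0 with an unadjusted limma p under 0.05). T and B cell and macrophage markers gave 0 calls of 5 and 0 of 4, also unadjusted. All 5 luminal means were negative, with a median of -0.45. All 5 T and B cell and all 4 macrophage means were positive, with medians of 0.51 and 0.24. The median SDs between dogs were 1.19, 1.59 and 1.41 in these 3 lists, so the lack of calls does not show equal cell content. Most markers of other cell types were called. Of the measured ones, 3 of 3 basal, 3 of 4 adipocyte, 4 of 4 endothelial and 10 of 12 skeletal muscle markers were called lower in the tumours. Called higher were 4 of 4 proliferation markers. The shares over all genes were 11.1% lower and 18.4% higher. The 3 basal markers were KRT17, ACTA2 and MYH11, out of 6 listed, and the adipocyte and proliferation lists held 7 and 6 symbols. Summed as means per array, adipocyte markers ran from 7.34 to 11.53 in tumours and 7.09 to 12.87 in glands, and proliferation markers from 6.69 to 10.88 in tumours and 3.43 to 7.76 in glands. The 3' minus 5' signal of the actin control probe sets, a sign of RNA integrity, had a median of 1.14 in tumours (0.33 to 1.91) and 1.50 in glands (0.53 to 2.70). The part of these differences in the results was not tested, except where an adjusted value is given.

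Most ribosomal protein genes gave signals close to the top of the range. The median of the 53 genes over 25 arrays was 14.72, in a data set that ran from 0.86 to 16.66, and 41 of the 53 averaged above 14, where only 115 of all 8885 genes lay. RPS7, RPS20 and RPS29, all of the small subunit, gave the 3 highest mean signals, at 15.66, 15.43 and 15.50 in that order. Signals of different probe sets are not calibrated against each other, so this order describes probe sets and not mRNA abundance. Within a probe set the 25 arrays lay close together: 40 of the 53 genes had an SD under 0.3. RPS29 ranged from 15.38 to 15.63 in tumours and from 15.39 to 15.59 in glands, with an SD of 0.074 over all arrays. RPL32 followed with an SD of 0.11.

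**Figure D1:**
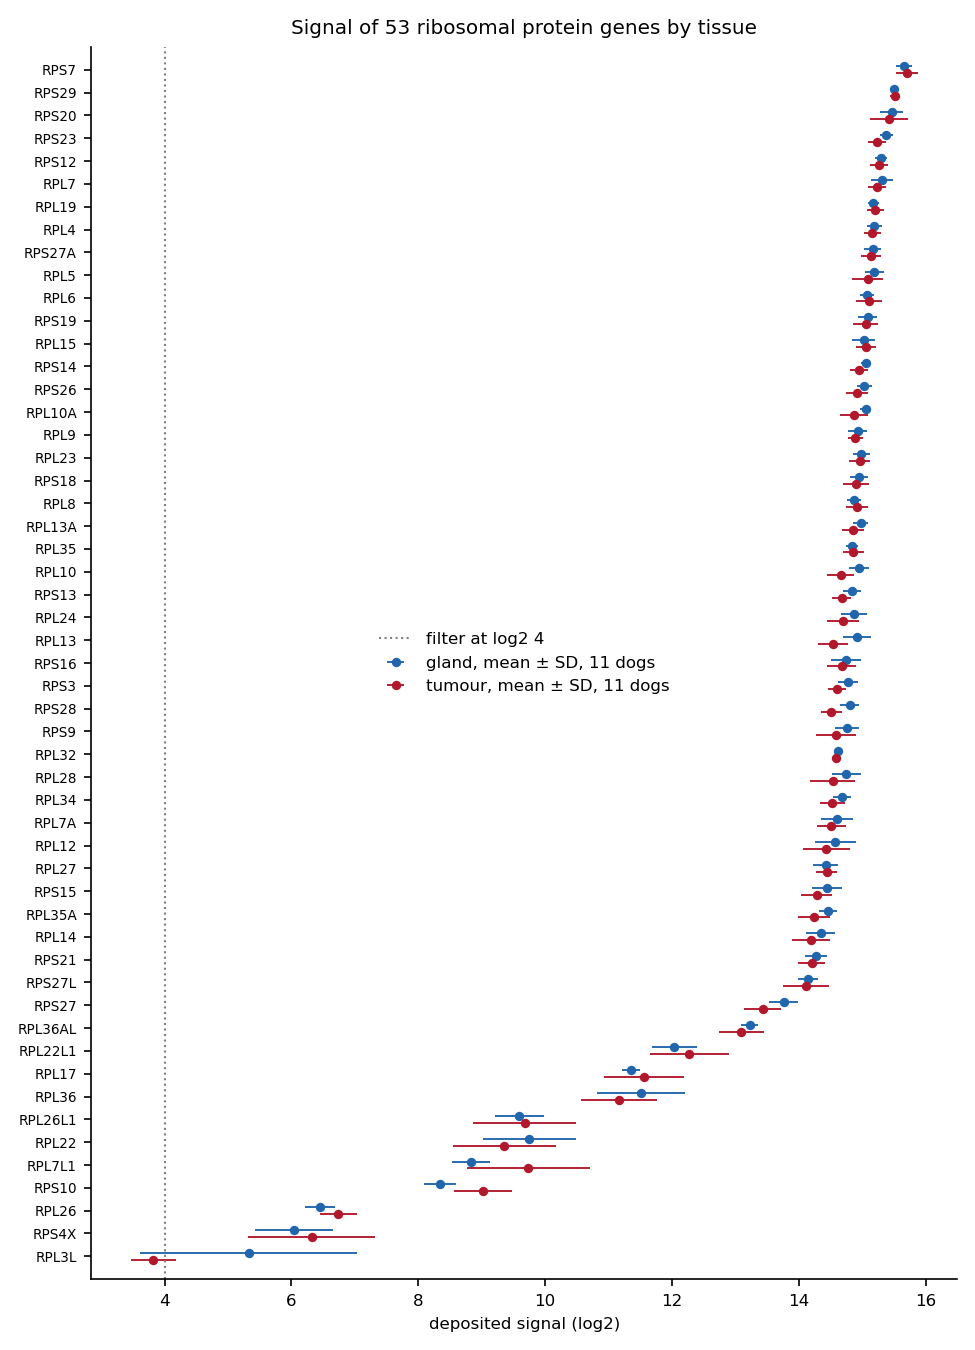
Mean deposited signal (log2, x axis) of the 53 tested ribosomal protein genes (y axis, ordered by the mean over 25 arrays) in gland (blue) and tumour (red), with bars of 1 SD over 11 dogs and a dotted line at log2 4. Of the 53 genes 41 average above 14, and RPL3L, RPS4X and RPL26 lie lowest.

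The other 12 genes averaged at or below 14 and included RPS27, RPL36AL, RPL22L1, RPL17, RPL36, RPL26L1, RPL22, RPL7L1, RPS10, RPL26, RPS4X and RPL3L. The paralogues RPL22L1, RPL26L1, RPL36AL, RPL7L1 and RPL3L were thus all in this group, while RPS27L averaged above 14. RPS4X, an X-linked small subunit gene, ranged from 4.06 in the tumour of dog 13 to 7.73 in the tumour of dog 12, and its glands from 4.94 to 7.12. Its difference was 0.28 ± 0.95, with 6 dogs lower and 5 higher. Of the 53 representative probe sets 34 carried the Affymetrix suffix _s_at and 6 the suffix _x_at, which mark probes shared within a gene family or similar to other sequences. Ribosomal protein genes have many near-identical processed copies, so what such a probe set measures is uncertain.

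Between tumour and gland the ribosomal protein genes as a family differed little. The median difference over the 53 genes was -0.073, beside 0.096 over all genes tested. It stayed negative in every setting tried except where arrays were centred on the ribosomal protein median. That setting, which removes the family shift itself, gave 0.081. Of the 53 genes 38 had a negative and 15 a positive mean difference, beside 3775 and 5110 of all 8885 genes. The differences of the 53 were small: the median absolute difference was 0.12, beside 0.37 over all genes, and the median SD between dogs was 0.23, beside 0.66. For 41 of the 53 the 95% interval of the difference lay within 0.5 on either side of 0, and only RPL3L differed by at least 2-fold.

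In the paired test 8 of 53 genes (15.1%) were called, where 29.6% of all genes tested were. The 6 lower calls (RPL3L, RPL13, RPS27, RPS28, RPL10, RPS3) stand beside 11.1% called lower among all genes, and the 2 higher calls (RPS10, RPL7L1) beside 18.4% called higher. Each subunit gave 1 higher and 3 lower calls, among 32 large and 21 small subunit genes, with median differences of -0.087 and -0.073. Counted whether called or not, 2 of the 53 members, RPL13 and RPL10, were lower in all 11 dogs, where 2.87% of all genes were. On the same count 0 members were higher in all 11, where 5.71% of all genes were. On all 93 tested probe sets of the members 10 were called, beside 28.4% of all probe sets, and these were the 8 representatives and the second probe sets of RPL7L1 and RPS10.

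**Figure D2:**
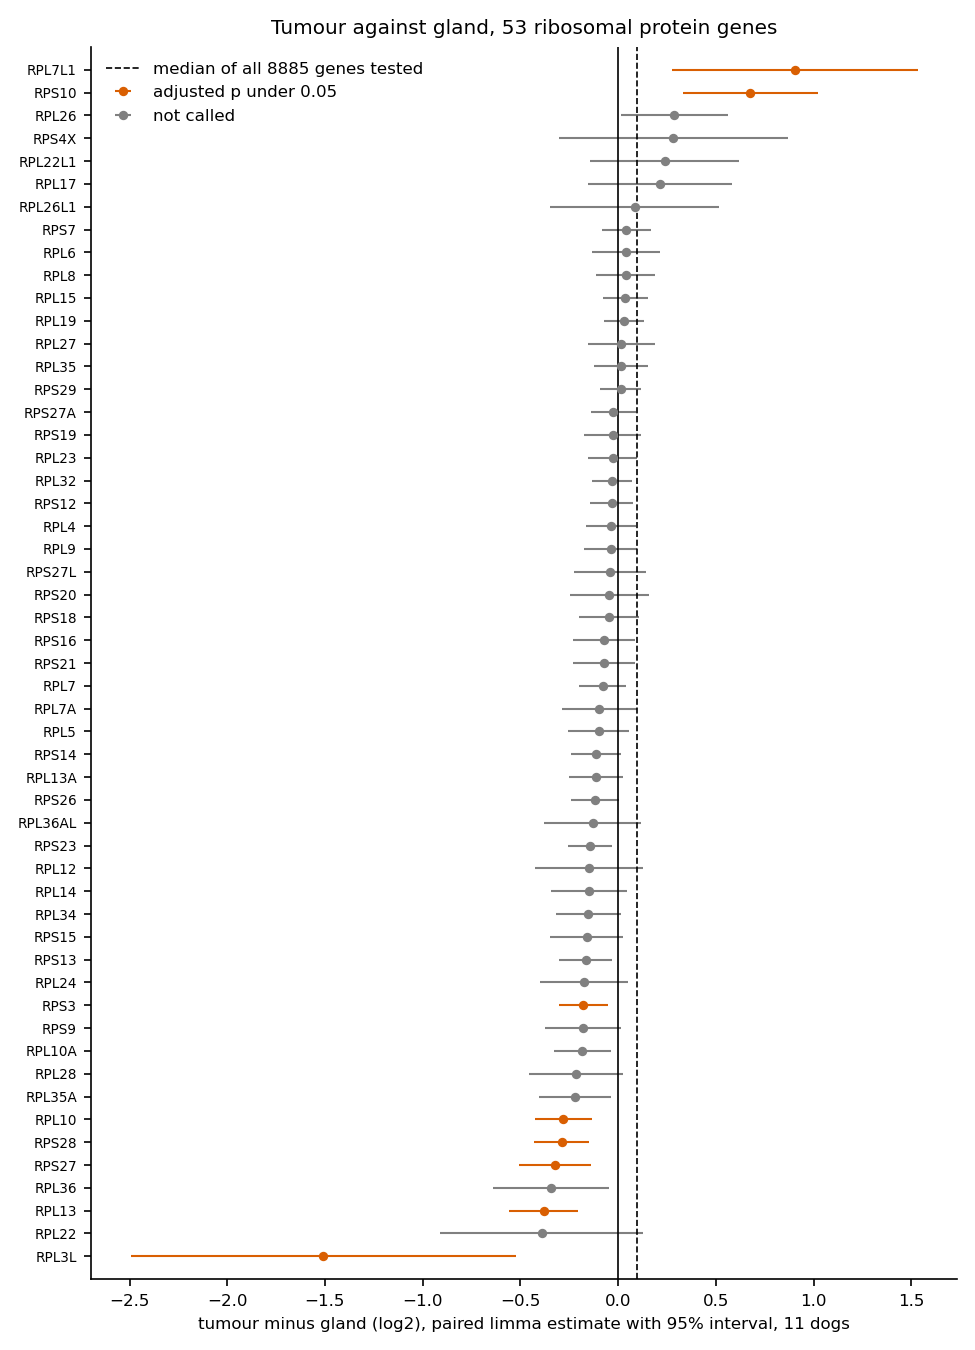
Tumour minus gland (log2, x axis) for the 53 ribosomal protein genes (y axis, ordered by difference), with the 95% interval of the paired limma fit over 11 dogs, orange where called and grey otherwise. Most genes lie left of both 0 and the dashed median of all genes (0.096), and RPL7L1, RPS10 and RPL3L stand out.

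RPL13, a large subunit protein altered in a human skeletal dysplasia, gave 14.12, 14.58 and 14.93 as the lowest, median and highest of 13 tumours and 14.62, 14.89 and 15.31 in 12 glands. Of the 13 tumours 9 lay below every gland, although the groups overlapped. The difference was -0.38 ± 0.26 (n = 11 dogs, 1.30-fold lower, limma adjusted p = 0.0049).

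RPL10, which joins the large subunit in its last steps of maturation, ranged from 14.22 to 14.86 in tumours, with a median of 14.71, and from 14.76 to 15.20 in glands, with a median of 14.88. Of its 13 tumours 8 lay below every gland. The difference was -0.28 ± 0.20 (11 of 11 dogs lower, limma adjusted p = 0.0097).

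RPS28, a small protein near the path of the mRNA out of the small subunit, had tumour signals of 14.24 to 14.76, median 14.55, and gland signals of 14.56 to 15.01, median 14.81. Again 8 of 13 tumours lay below every gland, and among the pairs dog 7 alone went the other way. The difference was -0.29 ± 0.18 (10 of 11 dogs lower, limma adjusted p = 0.0065). RPS28 was named after its values were seen.

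RPS27, a zinc finger protein of the small subunit, ranged from 12.99 to 13.97 in tumours (median 13.40) and from 13.21 to 13.99 in glands (median 13.82). The groups overlapped over nearly their whole range. The difference was -0.32 ± 0.26 (10 of 11 dogs lower, limma adjusted p = 0.0139). RPS3, which lines the entry of the mRNA channel, ranged from 14.40 to 14.89 in tumours (median 14.58) and from 14.51 to 15.10 in glands (median 14.75). Its difference of -0.18 ± 0.14 was the smallest of the called ones (10 of 11 dogs lower, limma adjusted p = 0.0385). The RPS3 call was lost when any of 8 dogs (2, 3, 4, 5, 6, 10, 11 or 14) was left out, with adjusted p-values of 0.0535 to 0.0738.

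RPS10, a small subunit protein close to the mRNA entry that is ubiquitinated when ribosomes stall, moved opposite to these. Its signals ran from 7.99 through a median of 8.99 to 10.01 in tumours and from 7.94 through 8.35 to 8.74 in glands, and 9 of 13 tumours lay above every gland. The highest was dog 10. The difference was 0.68 ± 0.50 (1.60-fold higher, 9 of 11 dogs, limma adjusted p = 0.0080). A second RPS10 probe set was higher in 11 of 11 dogs, by 0.96 ± 0.41 (limma adjusted p = 0.000658). Both lay near a log2 level of 8 to 9, far below the signals of most other subunit genes, and the call on the representative was kept when any 1 dog was left out.

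RPL7L1, the paralogue of RPL7, ranged from 8.78 to 12.40 in tumours (median 9.48) and from 8.46 to 9.42 in glands (median 8.77). The tumour of dog 6, at 12.40, stood 2.73 above the mean of the tumours after removal of the median deviation of the members on its array. Next came dogs 12 (10.25) and 7 (10.07), and 7 of 13 tumours lay above every gland. The difference was 0.90 ± 1.05 (9 of 11 dogs higher, limma adjusted p = 0.0352), and the second probe set gave 0.90 ± 1.07 (adjusted p = 0.0376). Without dog 6 the difference was 0.64 and still called (adjusted p = 0.0315), but the call was lost without any of dogs 4, 7, 10, 11 or 12 (adjusted p = 0.0527 to 0.0697). RPL7 itself differed by -0.079 ± 0.14 and was not called.

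**Figure D3:**
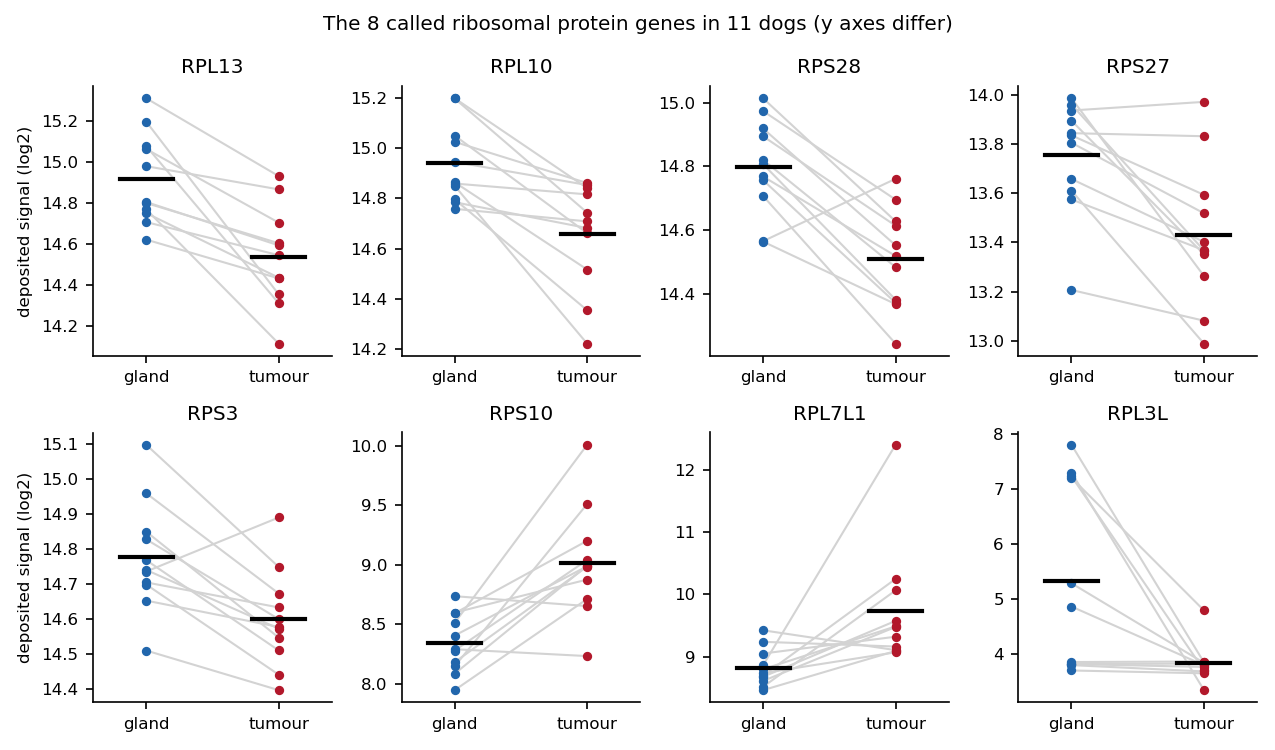
Deposited signal (log2, y axes differ between panels) of the 8 called ribosomal protein genes in the gland (blue) and tumour (red) of 11 dogs, with grey lines joining the tissues of a dog and black bars at the means. RPL13 and RPL10 go down in all 11 dogs, RPS10 goes up in 9, 1 tumour (dog 6) reaches 12.40 for RPL7L1, and RPL3L is at least 4.86 in 6 glands and at most 3.85 in the other 5.

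RPL3L, the heart and skeletal muscle paralogue of RPL3, had the widest difference, and it rested on some of the glands. Of the 13 tumours 12 lay between 3.34 and 3.86, near or below the filter at log2 4, and the tumour of dog 12 reached 4.79. The glands of dogs 2, 3, 4, 5, 6 and 8 lay between 3.69 and 3.89, whereas those of dogs 7, 10, 11 and 12 reached 7.23, 7.30, 7.80 and 7.20 and those of dogs 13 and 14 reached 5.28 and 4.86. The difference was -1.51 ± 1.67 (9 of 11 dogs lower, limma adjusted p = 0.0267), and RPL3L passed the filter through these glands.

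The same 6 glands held skeletal muscle markers. The mean of 12 muscle markers ran from 9.27 to 11.41 in the glands of dogs 7, 10, 11, 12, 13 and 14, from 4.14 to 4.37 in the other glands of paired dogs, and from 3.14 to 4.41 in tumours. Of the 12 markers 8 (MYL1, MYL2, TNNC2, MB, MYH7, TTN, MYLPF, TNNT3) were below log2 4 in all 13 tumours and in 6 glands. In the 6 dogs with muscle signal in the gland RPL3L differed by -2.73 ± 1.28, and in the 5 dogs without it by -0.040 ± 0.052. The other RPL3L probe sets gave -3.41 ± 1.63 and -3.92 ± 1.71 in the first set of dogs and 0.0024 ± 0.058 and -0.013 ± 0.020 in the second. The RPL3L call was lost without dog 7, 10, 11 or 12 (limma adjusted p = 0.0540 to 0.0590), and with the muscle mean as a covariate the difference was 0.16 and not called.

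**Figure D4:**
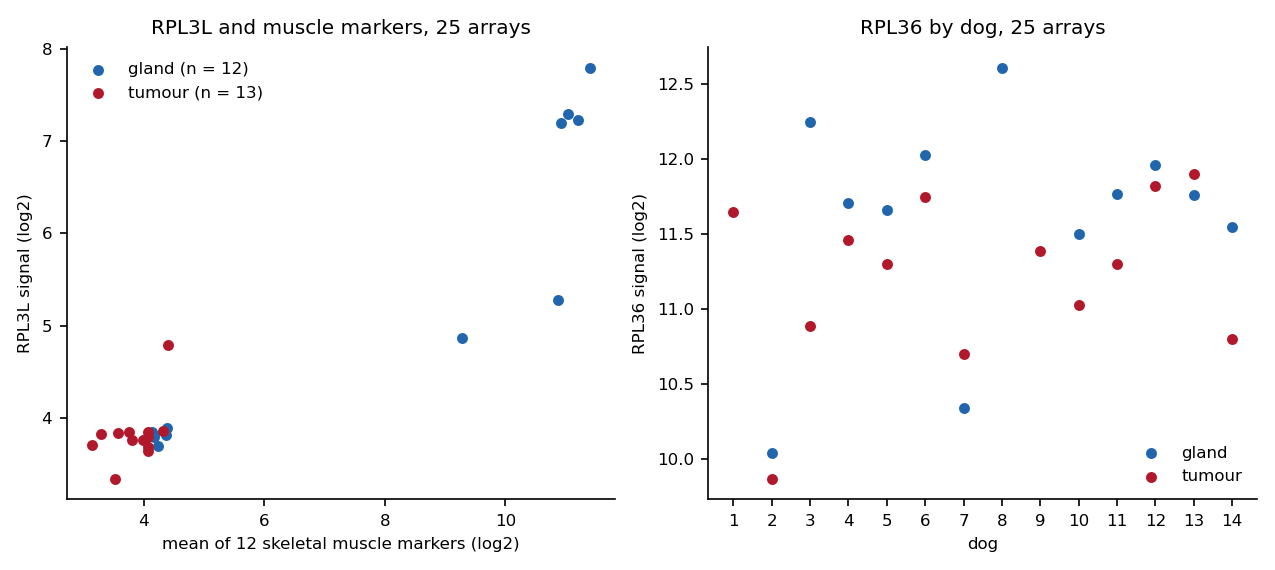
Left: RPL3L signal against the mean of 12 skeletal muscle markers (both log2) on 25 arrays, gland in blue and tumour in red. Right: RPL36 signal (log2) by dog in both tissues. RPL3L is at least 4.86 in the 6 glands whose muscle mean exceeds 9, and RPL36 is low in both tissues of dogs 2 and 7.

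The other called genes were also set beside the muscle signal, since it splits the dogs. In the 5 dogs without it, the differences were -0.44 for RPL13, -0.38 for RPL10, -0.37 for RPS28, -0.24 for RPS27, -0.24 for RPS3, 0.47 for RPS10 and 0.95 for RPL7L1. All kept their direction, but the RPL7L1 value rested on dog 6, without which the other 4 dogs gave 0.30 ± 0.31 (-0.076 to 0.69). The falls of RPL13, RPL10, RPS28 and RPS3 were as large as in all 11 dogs. None was called there (limma adjusted p = 0.0786 to 0.311), nor with the muscle mean as a covariate, where 258 and 241 of all 8885 genes were called. With limma both settings thus gave 0 called members, and 7 and 8 of 53 had an unadjusted p under 0.05, beside 14 in all 11 dogs.

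The median of the 53 genes on each array summarises the family. It ran from 14.47 to 14.89 in tumours and from 14.62 to 15.10 in glands, and the tumour differed from the gland of the same dog by -0.15 ± 0.17, being lower in 9 of 11 dogs. Dogs 7 (0.27 higher in the tumour) and 12 (0.059 higher) went the other way, with 39 and 37 of 53 genes higher, whereas in each of the other dogs 32 to 44 genes were lower. In the 5 dogs without muscle signal the family median differed by -0.22 ± 0.052 and 42 of 53 genes had a negative mean, and in the 6 dogs with it by -0.10 ± 0.23 and 33 of 53. The difference between these sets of dogs was not tested. With the actin 3' minus 5' signal as a covariate the median over the members was -0.052, with 2 higher and 5 lower calls.

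Relative to the rest of the family, the genes that stood out changed. When each array was centred on its ribosomal protein median, 10 members were called higher and 2 lower, where 37.2% of all genes were called and the median of all genes moved to 0.25. RPS10 (0.83, limma adjusted p = 0.0023), RPL7L1 (1.06, adjusted p = 0.0118), RPL26 (0.44, adjusted p = 0.0289) and RPS7 (0.20, adjusted p = 0.0130) rose against the family, as did RPL35, RPL27, RPL19, RPL15, RPL8 and RPL6. For RPL6 and RPL19 this holds for the representative probe set, at 0.040 and 0.030 on the deposited scale. Their other tested probe sets were all negative on that scale, from -0.39 to -0.056 for RPL6 and -0.062 for RPL19. RPL3L (-1.35, adjusted p = 0.0397) and RPL13 (-0.23, adjusted p = 0.0318) fell against it. The centring subtracts the mean family shift of -0.15 from every member, so more higher and fewer lower calls follow from the setting itself. RPS27, RPS28, RPL10 and RPS3 were not called on this scale, with differences of -0.17, -0.13, -0.13 and -0.024. Their calls thus hold for the deposited normalization, and the lack of a call here does not show that they moved with the family.

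Genes with similarly high signals outside the family were used as a further reference, chosen after the data were seen. Outside the family, 74 genes averaged above log2 14. They include RPLP0 and RACK1, ribosomal proteins with symbols of another form, and translation factors such as EEF1A1 and EEF1G. This reference is thus not free of related genes, and 17 of the 74 carry only a LOC symbol. The median difference of the 74 was -0.0093, with 7 higher and 5 lower calls, or 16.2%. The 41 ribosomal protein genes above 14 had a median of -0.079, with 0 higher and 4 lower calls, or 9.76%. The median absolute difference was 0.079 in the ribosomal protein genes and 0.11 in the other genes. Signals near the top of the range differed little in both sets, and whether signal height limits the differences was not tested. The 12 members at or below 14 had a median of 0.15, with 2 higher and 2 lower calls.

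Several members lay just outside the threshold. RPS23, at the decoding centre of the small subunit, differed by -0.14 ± 0.12 (limma adjusted p = 0.0546). RPL10A (-0.18 ± 0.20, adjusted p = 0.0582), RPS13 (-0.17 ± 0.17, adjusted p = 0.0629) and RPL35A (-0.22 ± 0.27, adjusted p = 0.0678) were close to it. RPL26, a large subunit protein known to bind the mRNA of p53, had a mean 0.29 ± 0.30 above the gland and was higher in 10 of 11 dogs, without passing the test (adjusted p = 0.104). Its paralogue RPL26L1 differed by 0.084 ± 0.69, and the sign turned to -0.0012 after a second quantile normalization.

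A further 6 members, described for a known role or a high signal, were not called in the paired test. RPL5, part of the 5S particle that binds MDM2, ranged from 14.53 to 15.44 in tumours and from 15.01 to 15.47 in glands, with a difference of -0.10 ± 0.23 (95% interval -0.26 to 0.058). RPS14, which is lost with part of a chromosome arm in a human bone marrow disorder, gave -0.11 ± 0.16, and RPS19, mutated in Diamond-Blackfan anaemia, gave -0.028 ± 0.20. RPL4 gave -0.036 ± 0.15 and RPS20 -0.045 ± 0.32. RPS7 gave 0.042 ± 0.16. Each of these 6 means was smaller than its SD between dogs, and those of RPL4, RPS19 and RPS20 changed sign after a second quantile normalization (0.018, 0.020 and 0.0077).

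The paralogues did not move as 1 group. RPL36AL, close to RPL36A, ranged from 12.31 to 13.60 in tumours and from 12.88 to 13.40 in glands and differed by -0.13 ± 0.38, or by -0.044 without dog 10. RPS27L, a paralogue of RPS27 that p53 is known to induce, gave 13.36 to 14.61 in tumours and 13.88 to 14.35 in glands. Its difference was -0.040 ± 0.27, and of 13 tumours 3 lay above and 4 below every gland. RPL22L1, the paralogue of RPL22, gave 11.14 to 13.30 in tumours and 11.31 to 12.62 in glands, with a difference of 0.24 ± 0.62, or 0.10 without dog 7. RPL22, an RNA-binding protein of the large subunit that is dispensable for translation in many cells, gave 8.08 to 11.12 in tumours and 8.46 to 10.95 in glands. Its difference was -0.39 ± 0.85, with 7 dogs lower and 4 higher. The tumours of dogs 14 (11.12) and 12 (10.54) were its highest, and none of these 4 genes was called.

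Parent genes and paralogues were correlated over the arrays of a tissue, for 4 pairs and hence 8 relations, chosen after the data were seen. The strongest was RPS27 with RPS27L in 13 tumours, with Pearson's r = -0.52 (permutation p = 0.0720, adjusted p = 0.450) and Spearman's rho = -0.54 (permutation p = 0.0575, adjusted p = 0.443). Without the 2 tumours farthest from the median of RPS27 r was -0.50. In 12 glands r was -0.45 (permutation p = 0.143, adjusted p = 0.450), rho was -0.37 (permutation p = 0.237, adjusted p = 0.496) and r without the 2 farthest glands was -0.35. None of the 8 passed the correction, the lowest adjusted p being 0.443.

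Single arrays stood away from the family in few places. Each value was taken as a deviation from the mean of its gene and tissue, and the median deviation of the members on the array was removed. Of 1325 values of members on arrays 29 then lay more than 1 from 0. These came from 10 genes, and 19 were outside RPL3L. Beside the values given above, RPL17, a large subunit protein at the exit of the peptide tunnel, reached 13.49 in the tumour of dog 1 and 13.14 in that of dog 4, where its median over 13 tumours was 11.41 and its glands ended at 11.68. The other RPL17 probe sets gave paired differences of 0.33 ± 0.64 and -0.39 ± 0.82, beside 0.21 ± 0.59 for the representative, so the probe sets of RPL17 disagreed in sign.

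RPL36, a large subunit protein, differed between dogs. Its signals were 9.87 in the tumour and 10.04 in the gland of dog 2, and 10.70 and 10.34 in dog 7. All other tumours lay between 10.80 and 11.90 and all other glands between 11.50 and 12.61. In a test of the dog terms added after the data were seen, RPL36 was the only 1 of 53 members called (limma moderated F = 6.98, adjusted p = 0.0395), where 3.21% of all genes were. Its tumour against gland difference was -0.34 ± 0.45, lower in 9 of 11 dogs and not called (adjusted p = 0.0788), and it was called without dog 7 (adjusted p = 0.0426) and after a second quantile normalization (-0.43, adjusted p = 0.0377).

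Ribosomal proteins with symbols of another form were also lower on average. Of 8 listed symbols 5 were measured, 0 were called higher and 3 lower, where 18.4% and 11.1% of all genes tested were. RPLP1 and RPLP2, the stalk proteins that recruit elongation factors, fell by 0.55 ± 0.44 (limma adjusted p = 0.0090) and 0.31 ± 0.22 (adjusted p = 0.0112). FAU, whose product is cleaved to RPS30, fell by 0.44 ± 0.28 (adjusted p = 0.0041). RPLP0 and RACK1 differed by -0.079 ± 0.24 and -0.16 ± 0.26 and were not called. The median of the 5 was -0.31, and -0.15 on the scale centred on the family. In the dogs without muscle signal it was -0.35 with 0 calls.

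A list of genes whose mRNAs also carry TOP tracts, most of them translation factors, had a median of -0.20 over 14 measured genes. It also holds TPT1 (-0.13), BTF3 (-0.36) and NAP1L1 (-0.58), which are not translation factors and were not called. Calls were 0 higher and 3 lower (0 and 7 at an unadjusted limma p under 0.05). In either direction 21.4% of the 14 were called, where 29.6% of all genes were, 18.4% higher and 11.1% lower. EIF4B, which helps unwind mRNA for initiation, fell by 0.69 ± 0.70 (limma adjusted p = 0.0201). EIF3F, an initiation factor subunit, fell by 0.38 ± 0.28 (adjusted p = 0.0089), and EEF1G, an elongation factor subunit, fell by 0.23 ± 0.24 (adjusted p = 0.0435). Of the 14 genes 12 had a negative mean, EIF3H (0.31 ± 0.61) and PABPC1 (0.090 ± 0.26) being the exceptions, and 1 was called in the dogs without muscle signal.

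Genes of the ribosome biogenesis list, which holds assembly factors and the transcription factor MYC, went the other way. All 30 measured genes of that list had a positive mean, with a median of 0.59. Of these, 18 were called higher and 0 lower, beside 18.4% and 11.1% of all genes (25 and 0 at an unadjusted limma p under 0.05). After a second quantile normalization 28 of the 30 were positive, with a median of 0.50. DKC1, the pseudouridine synthase of ribosomal RNA, rose by 1.18 ± 1.17 (limma adjusted p = 0.0168), TSR1, a small subunit assembly factor, by 1.01 ± 0.72 (11 of 11 dogs, adjusted p = 0.0048) and WDR12, a large subunit assembly factor, by 0.96 ± 0.41 (11 of 11 dogs, adjusted p = 0.000766). FBL, the methyltransferase of ribosomal RNA, rose by 0.76 ± 0.72 (adjusted p = 0.0150), and NPM1, a nucleolar chaperone, by 0.75 ± 0.70 (adjusted p = 0.0151). MYC, a known activator of these genes, differed by 0.57 ± 0.92 and NCL, nucleolin, by 0.063 ± 0.33, and neither was called. In the 5 dogs without muscle signal the median was 0.61, with 28 of 30 positive and 1 called.

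Of the RNA polymerase I list 8 of 15 symbols were measured, with a median of 0.52. Calls were 3 higher and 0 lower, beside 18.4% and 11.1% of all genes. RRN3, the initiation factor of the polymerase, rose by 1.12 ± 0.59 in 11 of 11 dogs (limma adjusted p = 0.0015). Its means of 4.16 in glands and 5.28 in tumours lay near the filter at log2 4. With a filter at log2 6, 5 genes of the list remained and 2 were called higher. POLR1E (-0.081) and TAF1D (-0.35) had negative means and were not called. POLR1F rose by 0.66 ± 0.62 and TAF1A by 0.56 ± 0.59. The 5 measured genes with RPS6 kinase symbols were RPS6KA1, RPS6KA3, RPS6KB1, RPS6KB2 and RPS6KC1. They had 0 calls with limma, 0 of them with an unadjusted p under 0.05. Their median of 0.036 turned to -0.030 after a second quantile normalization. The lists were not tested against each other or against the family.

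**Figure D5:**
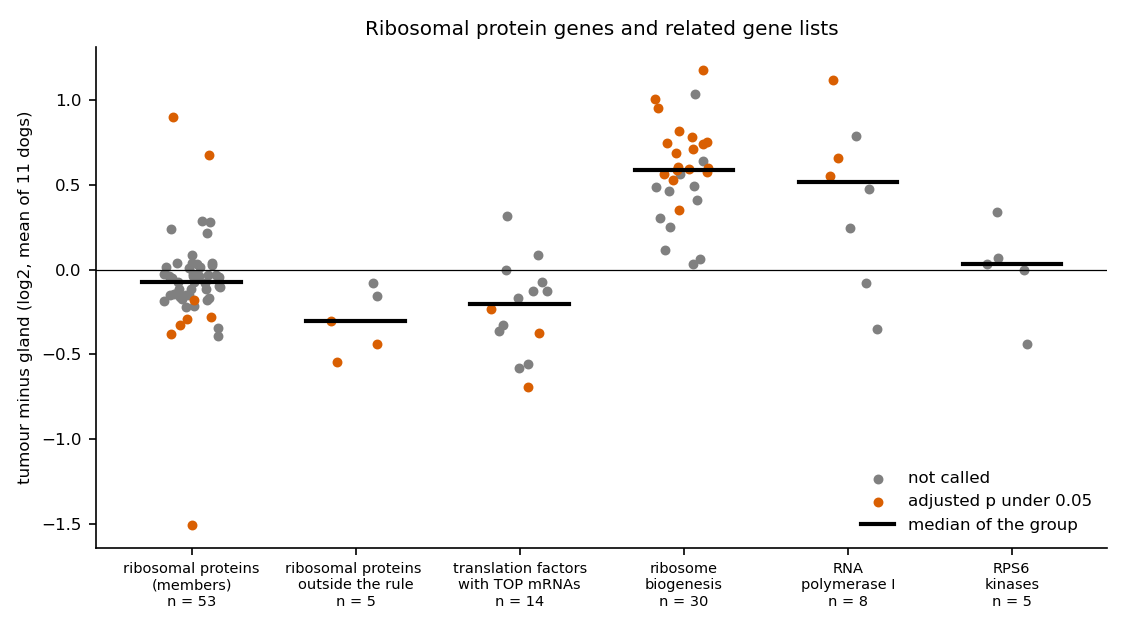
Tumour minus gland (log2, y axis, mean of 11 dogs) of each gene in the ribosomal protein family and 5 related lists (x axis), orange where called and grey otherwise, with a black bar at the median of the list. The ribosomal protein median is -0.073, the list labelled translation factors, which also holds TPT1, BTF3 and NAP1L1, lies at -0.20, and the 30 genes of the ribosome biogenesis list all lie above 0.

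Probe sets left out by the rule were kept apart. Of the 12 that name several genes, the first with a matching symbol, 9 were tested. All 9 had negative differences, from -0.40 to -0.098, and 1 was called. RPS19BP1, the protein that binds RPS19, was called higher on both its probe sets, by 0.80 ± 0.69 (limma adjusted p = 0.0111) and 0.75 ± 0.65 (adjusted p = 0.0123).

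Within the tumours, no ribosomal protein gene reached the adjusted threshold for a trend with survival or with tumour size. Survival after surgery was given for 12 tumours (1 to 9 months). Of 52 members measured there 45 had a positive slope, with a median of 0.019 per month beside 0.0010 over all genes. Members on the same arrays are not independent, and this count was not tested. With limma 0 members were called, where 0% of 8751 genes were. Unadjusted, 2 members had p under 0.05, beside 222 genes (2.54%). They were RPL22, with a slope of 0.21 ± 0.063 (SE) per month (limma p = 0.0056, adjusted p = 1.000), and RPS16, with 0.055 ± 0.023 (p = 0.0337, adjusted p = 1.000). For RPL22 the tumours of dogs 12 and 14, both with 9 months, were its highest.

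Tumour size was given for all 13 tumours (0.5 to 5 cm). Of 52 members 24 had a positive slope, with a median of -0.0021 per cm beside -0.0090 over all genes. With limma 0 members were called, where 0% of 8817 genes were, and 0 members had an unadjusted p under 0.05, beside 852 genes (9.66%). RPL10A had the smallest p, with a slope of 0.097 ± 0.045 (SE) per cm (limma p = 0.0502, adjusted p = 0.529). RPL7L1 followed with -0.33 ± 0.17 (p = 0.0812, adjusted p = 0.565), and the tumour of dog 6, its highest, measured 1 cm.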

How the data were processed

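The authors deposited 1 normalized log2 value per probe set and array for 43035 probe sets. Per the submitters' processing notes, Partek, GCRMA and RMA were used, with neither version nor role stated. No genome build is named, so no positions are given. Gene names came from the platform annotation (29703 probe sets), and a RefSeq gene table of UU_Cfam_GSD_1.0 changed 0 symbols. No normalization was added. After removal of 111 control probe sets, a probe set was tested if above log2 4 in at least 6 of 22 paired arrays, and the probe set of highest mean over 25 arrays stood for its gene. The paired comparison used limma 3.58.1 under R 4.3.3 (lmFit, eBayes with trend, dog as fixed block), 2-sided, with Benjamini-Hochberg adjustment over 21553 probe sets. Trends used tumours, with a filter of log2 4 in at least 4. Correlations used 100000 permutations.

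The members and lists were chosen with earlier results of these data known. Named members were, by rule, the 5 largest rises and falls, the 3 highest and 3 lowest levels, all called members of the rarer direction, the paralogues and members of known role. Other members are named where a count or threshold singles them out, after their values were seen. Tissues were paired by the dog number of the labels. After removal of tissue means the tumour and gland of a dog correlated at 0.119 to 0.456 in 11 of 11 dogs, against a median of -0.064 between dogs. The fit was tested on simulated data. No scan dates or scanner files were used here, and the number of arrays limits the precision.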

Additional observations from a re-analysis of the deposited data

How the results depend on the processing

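Limits: the number of dogs, high signals and shared probes limit what these arrays can show for ribosomal protein genes. Among members 2 were called higher, 6 lower, at a median of -0.073. Higher calls numbered 1 without the filter on low values (RPL7L1 was lost, adjusted p = 0.0757), 1 with the GAPDH covariate, 1 in the 9 dogs whose tumour title ends in _b, 4 with every probe set counted, 10 on the family-centred scale, and 0 with the muscle covariate and 0 in dogs without muscle signal. Lower calls numbered 2 on the family-centred scale, 3 in the _b dogs, and 0 in both muscle settings. Leaving out 1 dog gave 1 to 2 higher and 4 to 9 lower calls and medians of -0.112 to -0.056. The median was 0.081 on the family-centred scale, where the sign follows from subtracting the family shift itself. Without the replicate block (no pairing by dog) there were 2 higher and 5 lower calls at a median of -0.073, and RPS3 lost its call (adjusted p = 0.0680). Both trends gave 0 calls in every setting tried, without each tumour in turn too.

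Of 551 values of named genes under alternatives 25 changed sign, and the causes were not tested. Second quantile normalization gave -0.0012 for RPL26L1, 0.018 for RPL4, 0.020 for RPS19 and 0.0077 for RPS20. Family centring subtracts the family shift from every gene. It gave 0.023 for RPL36AL, 0.118 for RPL4, 0.054 for RPL5, 0.040 for RPS14, 0.126 for RPS19, 0.109 for RPS20 and 0.114 for RPS27L. The muscle covariate gave 0.163 for RPL3L, 0.033 for RPL4, 0.052 for RPS27L and -0.025 for RPS7, and the dogs without muscle signal gave -0.0041 for RPL26L1, 0.026 for RPL4, 0.028 for RPS27L and -0.016 for RPS7. The actin covariate gave 0.012 for RPL4 and -0.00046 for RPS29, and the _b dogs 0.0038 for RPS20. Leaving out 1 dog gave -0.042 (dog 6) to 0.191 for RPL26L1, -0.073 to 0.0086 (dog 12) for RPS27L and -0.0023 (dog 3) to 0.035 for RPS29.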
